A study of Homo sapiens with 12 samples.

Results

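The MYC, MAX and MXD network comprises 10 genes, MYC, MYCN, MYCL, MAX, MXD1, MXD3, MXD4, MXI1, MNT and MGA, listed by symbol and matched to the Ensembl identifiers of the count files. All 10 were found among the 54127 genes of those files. Their transcripts were measured by RNAseq in C4-2, a human prostate cancer line that descends from LNCaP and responds to androgen, grown in RPMI with serum. A group of 6 samples received DMSO vehicle and a group of 6 received PBKi (HI-TOPK-032, also labelled TOPK32, a small molecule that inhibits the kinase PBK) at 1 µM for 6 h. No genotype differed between the groups, a single cell line was used, and neither the labels nor the methods say whether replicates were separate cultures, so p-values measure the spread between these samples, which may be technical. Comparing PBKi with DMSO asks how the transcripts of this network responded to 6 h of kinase inhibition.

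MYC is a transcription factor that promotes cell growth, ribosome production and division, and it is often overexpressed in prostate cancer. It binds DNA only as a dimer with MAX, at short sites called E-boxes with the core CACGTG, where it recruits coactivators. MXD1, MXD3, MXD4 and MXI1 (also called MXD2), together with MNT and MGA, compete for MAX and for the same sites and recruit repressors, which for the MXD proteins and MNT is the SIN3-HDAC complex. MYC mRNA and protein are both short-lived, and the network is known to shift from MYC towards MXD proteins as cells stop dividing and differentiate.

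Depth was 9663203 to 28029908 reads on genes in DMSO and 13122415 to 22817803 in PBKi, each library being the sum of 4 lanes, or 3 lanes for DMSO replicate 5. The share of reads outside genes was 5.74% to 6.96% for DMSO and 5.94% to 9.30% for PBKi, and that of reads on overlapping genes, which were not counted, was 3.87% to 4.10% for DMSO and 4.16% to 4.35% for PBKi. All 10 luminal prostate epithelium markers listed were expressed. Their summed level was 5282 to 6369 CPM (read counts scaled to library size with TMM factors) in DMSO. It was lower, 2701 to 3704 CPM, in PBKi. By the test described below, 6 of the 10 fell (60.0%, against 21.5% of all genes tested) and 1 rose (10.0%, against 20.1%). The 11 markers of other cell types summed to 27.95 to 33.48 CPM in DMSO and 29.33 to 32.9 CPM in PBKi, with COL1A1 the highest of them, and CD68 rose while VWF and KRT14 fell. The T cell marker CD3E was at 0 in all 6 DMSO samples. The basal marker KRT5, too low to be tested, was at 0 in all 6 DMSO samples and at 0.148 to 0.312 CPM in PBKi, opposite in direction to the basal marker KRT14. The part of these values in the results below was not tested. PBK, the target of the inhibitor, went from 219 ± 37.2 to 165 ± 15.1 CPM (SD, n = 6 each) at the transcript level.

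PBKi lowered MYC, MXD3 and MXI1 and raised MXD1, and in these 4 genes every PBKi sample lay on the same side of every DMSO sample. MGA also passed the test as higher in PBKi, with overlapping groups. MAX, MXD4, MNT and MYCL did not pass, and MYCN was at or near 0 and could not be tested. Thus 5 of the 9 members tested (55.6%) passed at an adjusted p under 0.05, 3 lower and 2 higher. The test was the quasi-likelihood test of edgeR, adjusted over all genes by Benjamini-Hochberg, and each standard error (SE) is that of its log2 fold change. PBKi changed much of the transcriptome by the same rule, 41.7% of the 14505 genes tested, with 20.1% higher and 21.5% lower, so 5 of 9 is not far from the share of all genes. Groups did not overlap in 4 of 9 members (44.4%), against 20.1% of all genes tested. The same 4 members also changed by at least 0.5 on the log2 scale, against 13.1% of all genes tested. The median log2 fold change was -0.16 for the 9 members and -0.012 for all genes tested.

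**Figure D1:**
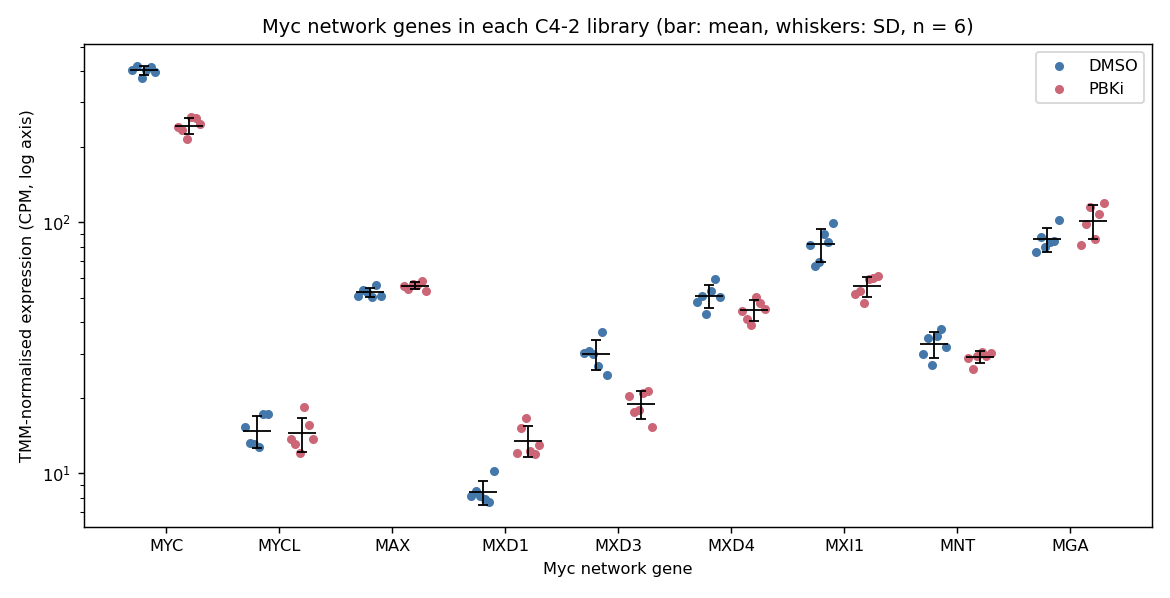
Normalised expression in CPM, on a log axis, of the 9 network genes above the count filter in each of the 12 libraries, with DMSO in blue, PBKi in red, and black bars and whiskers for the mean and SD (n = 6). MYC lies near 402 CPM in DMSO and 242.5 CPM in PBKi, MXD3 and MXI1 also fall without overlap, and MXD1 rises from 8.43 to 13.5 CPM.

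MYC (ENSG00000136997, chromosome 8 of GRCh37 from 128747680 to 128755197, plus strand) encodes the best known activator of the network. Its expression ranged from 374 to 419 CPM in DMSO (median 403) and from 214 to 263 CPM in PBKi (median 242). The highest PBKi sample was therefore well below the lowest DMSO sample, and PBKi replicate 3 was the lowest of all. The mean fell by 39.7%, a log2 fold change of -0.73 (SE 0.055, with edgeR's adjusted p = 1.79e-08). Only 248 of the 14505 genes tested had a more negative log2 fold change. These values rest on 3848 to 10365 counts per library in DMSO and 3172 to 5897 in PBKi, so counting error is small. In bulk samples such as these, fewer cells of a type and less RNA per cell cannot be told apart. MYC is among the genes the study drew as changed in these same samples, so its fall here is not independent evidence of one.

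MYCL (ENSG00000116990, chromosome 1 from 40361100 to 40367928, minus strand) encodes L-Myc, a paralogue with a narrower tissue range. Its expression ranged from 12.7 to 17.3 CPM in DMSO (median 14.2) and from 12.03 to 18.4 CPM in PBKi (median 13.7). The groups overlapped almost entirely, and the lowest and the highest sample were both PBKi. The log2 fold change was -0.02 with a standard error of 0.11 (edgeR adjusted p = 0.905), and its sign turned in several of the alternative fits. MYCN (ENSG00000134323, chromosome 2 from 16080672 to 16087129, plus strand), the neural paralogue, had 2 counts in all over the 6 DMSO libraries and 0 over the 6 PBKi libraries. In a single library, a count of 0 allows up to 3 counts by counting error alone, which is 0.107 to 0.310 CPM in DMSO and 0.131 to 0.229 CPM in PBKi.

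MAX (ENSG00000125952, chromosome 14 from 65472892 to 65569413, minus strand) is the obligate partner of both the activators and the repressors. Its expression ranged from 50.6 to 56.5 CPM in DMSO (median 51.9) and from 53.4 to 58.2 CPM in PBKi (median 56.2). Here 2 PBKi samples lay above all DMSO samples and the other 4 lay within their range. The log2 fold change was 0.09 (SE 0.047), which did not pass the test over all genes (edgeR adjusted p = 0.145). The two-sided exact permutation test on MAX alone gave p = 0.0260, unadjusted. Without DMSO replicate 5, the highest DMSO sample, the log2 fold change was 0.11 and passed (edgeR adjusted p = 0.0410). Some MAX exons overlap exons of FNTB on the opposite strand, which reached only 1.24 ± 0.208 CPM in DMSO and 1.46 ± 0.340 CPM in PBKi (SD, n = 6 each).

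MXD1 (ENSG00000059728, chromosome 2 from 70124820 to 70170077, plus strand) encodes Mad1, the antagonist linked most closely to differentiation. Its expression ranged from 7.68 to 10.2 CPM in DMSO (median 8.11) and from 11.95 to 16.6 CPM in PBKi (median 12.6). All PBKi samples lay above all DMSO samples, and DMSO replicate 6 was apart from the other DMSO samples, which did not exceed 8.55 CPM. The mean rose by 60.4%, a log2 fold change of 0.69 (SE 0.10, with edgeR's adjusted p = 3.13e-05). Counts per library were 71 to 225 in DMSO and 161 to 392 in PBKi. Summed over each group, they were the lowest of the members tested.

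MXI1 (ENSG00000119950, chromosome 10 from 111967363 to 112047123, plus strand), an antagonist that hypoxia is known to induce, moved the opposite way from MXD1. Its expression ranged from 67.2 to 99.4 CPM in DMSO (median 82.2) and from 47.8 to 60.9 CPM in PBKi (median 56.3). The groups did not overlap, and the DMSO samples were the more widely spread. The log2 fold change was -0.56 (SE 0.089, with edgeR's adjusted p = 8.56e-05), a fall of the mean to 0.679 of its DMSO value.

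MXD3 (ENSG00000213347, chromosome 5 from 176728462 to 176739758, minus strand) encodes the family member expressed mainly in dividing cells. It ranged from 24.8 to 36.5 CPM in DMSO (median 30.1) and from 15.3 to 21.3 CPM in PBKi (median 19.1), again without overlap. The log2 fold change was -0.65 (SE 0.094, with edgeR's adjusted p = 2.80e-05). Its exons share 1148 bases with PRELID1 on the opposite strand and 926 bases with RAB24 on the same strand, so reads there could have been left uncounted or placed in another gene. Neither neighbour passed the same test, with log2 fold changes of -0.13 (SE 0.12) for PRELID1 and 0.18 (SE 0.12) for RAB24.

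MXD4 (ENSG00000123933, chromosome 4 from 2249159 to 2263836, minus strand), the fourth MXD gene, had overlapping groups, with 43.1 to 59.4 CPM in DMSO (median 50.5) and 39.1 to 50.4 CPM in PBKi (median 44.8). Its log2 fold change of -0.18 (SE 0.076) did not pass (edgeR adjusted p = 0.0704). It did pass without DMSO replicate 3 (log2 fold change -0.21, edgeR adjusted p = 0.0219) and without PBKi replicate 4 (log2 fold change -0.22, edgeR adjusted p = 0.0356). With the replicate number as a block MXD4 passed as well (log2 fold change -0.18, edgeR adjusted p = 0.00729). MNT (ENSG00000070444, chromosome 17 from 2287367 to 2304398, minus strand), the antagonist present in most cell types, ranged from 26.97 to 37.4 CPM in DMSO (median 33.4) and from 26.0 to 30.5 CPM in PBKi (median 29.4). Of the PBKi samples of MNT, 1 lay below all DMSO samples and the others within their range, and its log2 fold change of -0.16 (SE 0.075) did not pass (edgeR adjusted p = 0.0972), except without DMSO replicate 3 (-0.21, edgeR adjusted p = 0.0206).

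MGA (ENSG00000174197, chromosome 15 from 41913332 to 42065279, plus strand) encodes a very large protein that pairs with MAX inside a Polycomb-type repressor complex with E2F6. Its expression ranged from 75.9 to 102 CPM in DMSO (median 83.8) and from 80.9 to 120 CPM in PBKi (median 103). Only 3 of 6 PBKi samples lay above all DMSO samples, namely replicates 3, 5 and 6. PBKi replicates 3 and 6 also had the highest shares of reads outside genes, 9.30% and 8.83%. The part of that share in the values of MGA was not tested. The log2 fold change was 0.24 (SE 0.093) and passed narrowly (edgeR adjusted p = 0.0429). Leaving out any of DMSO replicates 1 to 5 or PBKi replicates 2, 3, 5 or 6 ended the call, with log2 fold changes from 0.19 to 0.26 and adjusted p-values from 0.0538 to 0.110 in these 9 fits. With the replicate number as a block, MGA had 0.24 (edgeR adjusted p = 0.00291). In the 4 genes without overlap, the two-sided exact permutation test gave p = 0.00216, the smallest that 6 samples against 6 allow, and for MGA it gave p = 0.0693.

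**Figure D2:**
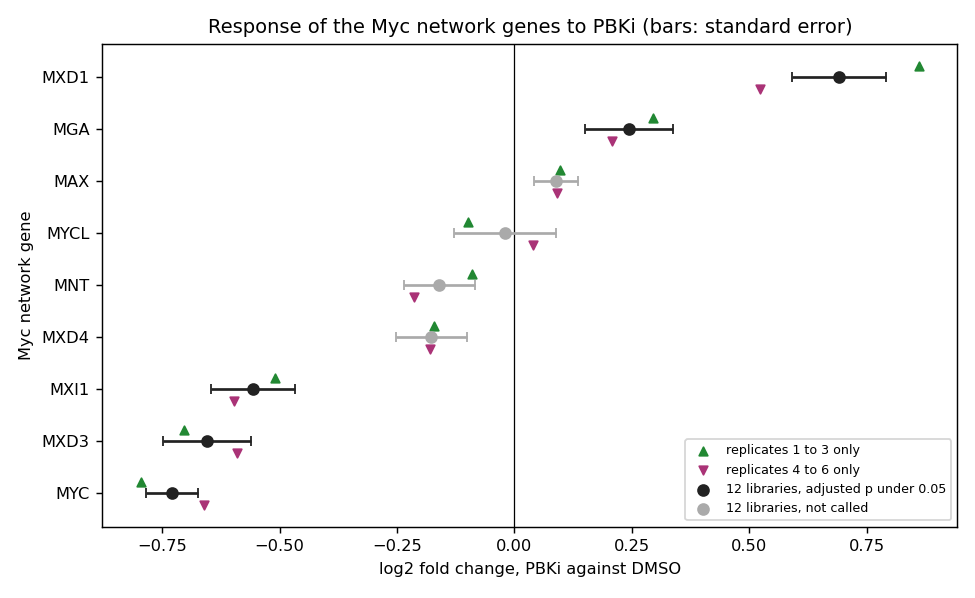
Log2 fold change of PBKi against DMSO for the 9 genes tested, with circles and standard error bars for all 12 libraries (black where the adjusted p was under 0.05, grey otherwise) and triangles for replicates 1 to 3 and 4 to 6 fitted alone. MYC, MXD3 and MXI1 are below 0 and MXD1 and MGA above 0 in both sets of replicates, whereas MYCL changes sign.

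Replicates 1 to 3 and replicates 4 to 6 were also fitted as separate sets. An earlier look at these data showed that these sets separate in both groups. The main test holds no term for this separation, and the labels do not say what lies behind it. The earlier-numbered set gave MYC a log2 fold change of -0.79, and replicates 4 to 6 gave -0.66. For MXD3 these values were -0.70 and -0.59, for MXI1 -0.51 and -0.60, and for MXD1 0.86 and 0.52, and all 4 genes kept an adjusted p under 0.05 in both sets by edgeR. MGA had 0.30 and 0.21, and it passed only in replicates 1 to 3 (edgeR adjusted p = 0.0212, against 0.263 in replicates 4 to 6). The difference between the sets was tested as an interaction with edgeR's quasi-likelihood test and called 0 genes at an adjusted p under 0.05 (0%), with 700 of 14505 at an unadjusted p under 0.05. Among the members the lowest unadjusted interaction p was that of MXD1 (0.0931, edgeR adjusted p = 0.927).

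Levels can be compared between genes only per length, so CPM were divided by the kilobases of annotated exon. These lengths are of GENCODE 44, a later annotation than the Ensembl release 64 used for counting, so they can hold exons that were not counted. The levels and part of their order depend on the length used, since with the longest transcript MXD3 (13.1 CPM per kb in DMSO) came before MXD4 (12.01), MNT (6.64) before MGA (5.87), and MYC was at 108. In DMSO, MYC stood far above the rest at 65.8 ± 2.64 CPM per kb (SD, n = 6). It was followed by MXI1 (13.8 ± 2.05), MAX (8.41 ± 0.368), MXD4 (7.39 ± 0.788), MXD3 (6.29 ± 0.845), MGA (4.26 ± 0.456), MNT (3.76 ± 0.440), MYCL (2.98 ± 0.423) and MXD1 (1.33 ± 0.147 CPM per kb), with MYCN near 0. The ranges of neighbours in this order overlapped for MAX and MXD4, MXD4 and MXD3, MGA and MNT, and MNT and MYCL. In PBKi the order was the same except that MGA (5.04 ± 0.780 CPM per kb) came before MXD3 (3.98 ± 0.501). MXI1 (9.39 ± 0.898) then no longer stood apart from MAX (8.92 ± 0.286 CPM per kb), and the ranges of MYCL and MXD1 met.

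The level of MYC relative to its partner and its antagonists was lower in every PBKi sample. The ratio of MYC to MAX levels per kb was 7.84 ± 0.363 in DMSO and 4.45 ± 0.333 in PBKi (SD, n = 6 each). The summed level of MXD1, MXD3, MXD4 and MXI1 was also lower in every PBKi sample, going from 28.8 ± 2.40 to 22 ± 1.39 CPM per kb, MXI1 and MXD3 being at higher levels per kb than MXD1. The ratio of MYC to this sum went from 2.29 ± 0.175 to 1.80 ± 0.0332. With MNT and MGA added to the antagonists the ratio went from 1.79 ± 0.122 to 1.31 ± 0.0635. Leaving out MXD3, whose exons overlap other genes, gave 2.95 ± 0.316 and 2.20 ± 0.0632. Groups did not overlap in any of these ratios, which are descriptions of transcript levels and not of protein. The size of the ratios depends on the exon length used.

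**Figure D3:**
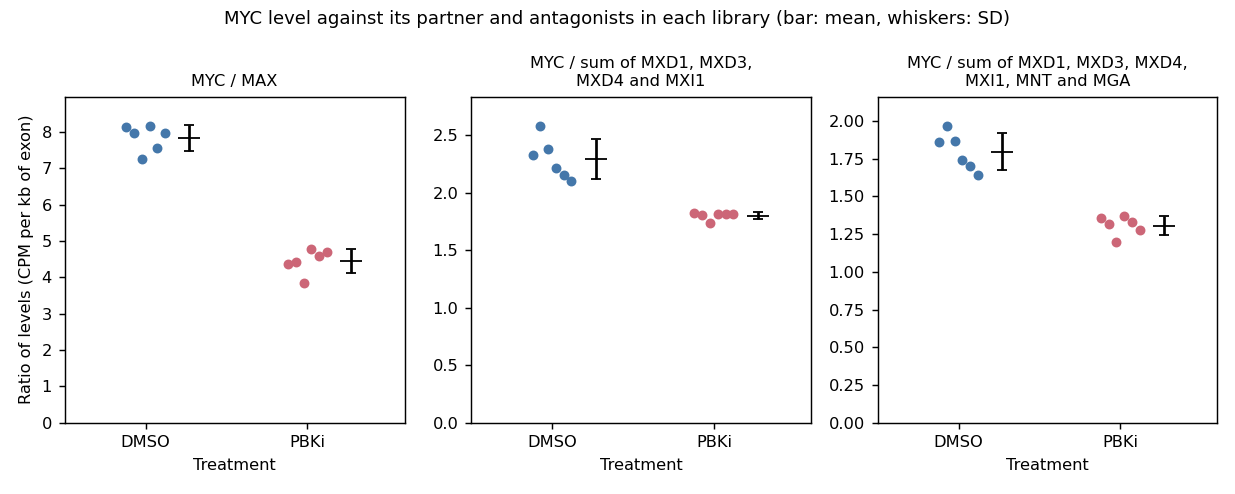
Ratio of the MYC level to the level of MAX (left), to the summed level of the 4 MXD genes (middle) and to that sum with MNT and MGA (right), from CPM per kb of exon in each library, with bars and whiskers for the mean and SD (n = 6). All PBKi samples lie below all DMSO samples in the 3 panels, at 4.45 against 7.84 for MYC to MAX.

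The makeup of the MXD transcripts shifted as well. MXI1 supplied 47.8% ± 4.27 of the summed MXD level in DMSO and 42.6% ± 2.23 in PBKi (SD, n = 6 each), with overlapping groups. The share of MXD1 went from 4.62% ± 0.550 to 9.77% ± 1.97, and the lowest PBKi sample (8.01%) exceeded the highest DMSO sample (5.20%). MXD4 supplied 25.6% ± 1.66 in DMSO and 29.5% ± 1.03 in PBKi without overlap. Its own level did not rise, going from 7.39 ± 0.788 to 6.50 ± 0.600 CPM per kb, a change that did not pass the test. MXD3 supplied 21.9% ± 3.29 and 18.1% ± 1.92, with overlapping groups. MXD1 thus remained the smallest of the 4 in every library although its share was higher in each PBKi sample. The shares depend on the length used, since with the longest transcript MXD3 came before MXD4 in DMSO.

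**Figure D4:**
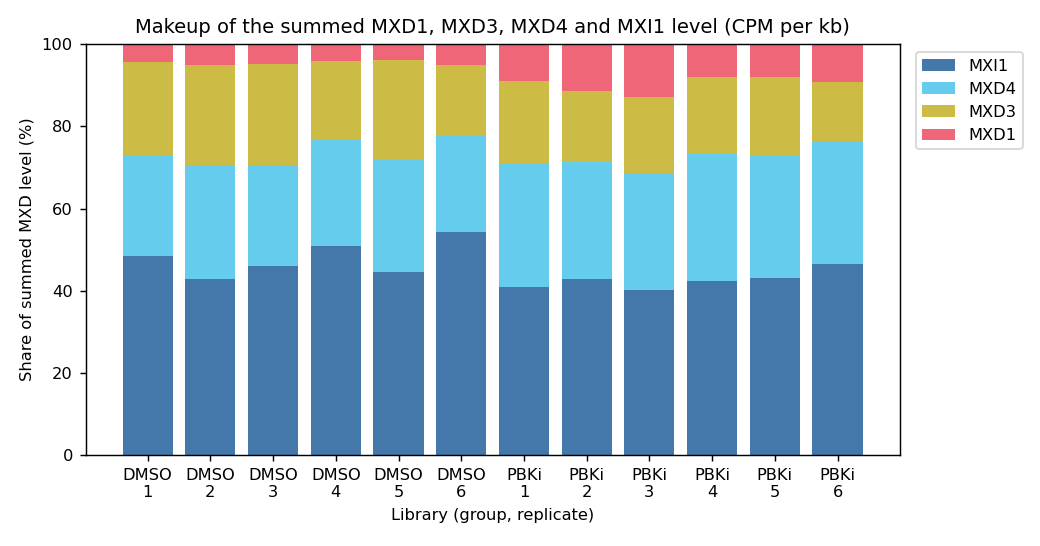
Share, in %, of the summed MXD1, MXD3, MXD4 and MXI1 level (CPM per kb of exon) that each gene supplied in each of the 12 libraries, as stacked bars. The MXD1 share at the top is 3.82% to 5.20% in DMSO and 8.01% to 13.0% in PBKi.

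Because MAX dimers bind E-boxes, the 250 bases before the RefSeq start of each gene were searched for CACGTG, which reads the same on both strands. RefSeq's promoter table (GRCh38.p14) held 9 of the 10 members, all but MYC, and the windows were placed on GRCh37 by exact match. The windows of MAX, MYCL and MXD1 lie within the annotated gene, so the sequence before an earlier start was not searched. CACGTG occurred in MXD4 and MNT, 2 of the 9, against 9.06% of the promoters of genes tested and 6.49% of all promoters in the table. The near match CACGCG (either strand) occurred in 0 of the 9, against 15.8% of the promoters of genes tested. The windows of MXD4 (chr4:2263837-2264086, minus strand) and MNT (chr17:2304355-2304604, minus strand) are shown because they hold the site, in capitals, and those of MXD1 (chr2:70141991-70142240, plus strand) and MXI1 (chr10:111967113-111967362, plus strand) because these antagonists moved in opposite directions and neither holds it.
MXD4: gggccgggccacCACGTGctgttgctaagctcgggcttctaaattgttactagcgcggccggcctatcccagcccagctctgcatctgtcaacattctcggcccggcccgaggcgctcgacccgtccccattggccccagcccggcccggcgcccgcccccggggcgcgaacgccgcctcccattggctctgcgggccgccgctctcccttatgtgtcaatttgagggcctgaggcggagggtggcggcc
MNT: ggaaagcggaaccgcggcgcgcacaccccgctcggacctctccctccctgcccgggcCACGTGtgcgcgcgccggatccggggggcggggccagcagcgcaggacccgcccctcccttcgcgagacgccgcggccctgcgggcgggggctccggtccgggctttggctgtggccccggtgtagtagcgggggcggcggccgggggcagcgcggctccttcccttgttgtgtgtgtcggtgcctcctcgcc
MXD1: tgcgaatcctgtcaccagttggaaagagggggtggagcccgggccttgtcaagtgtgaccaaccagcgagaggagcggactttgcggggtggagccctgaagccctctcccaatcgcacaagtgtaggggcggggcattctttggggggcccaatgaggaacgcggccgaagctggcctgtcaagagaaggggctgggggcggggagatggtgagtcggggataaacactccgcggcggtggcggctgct
MXI1: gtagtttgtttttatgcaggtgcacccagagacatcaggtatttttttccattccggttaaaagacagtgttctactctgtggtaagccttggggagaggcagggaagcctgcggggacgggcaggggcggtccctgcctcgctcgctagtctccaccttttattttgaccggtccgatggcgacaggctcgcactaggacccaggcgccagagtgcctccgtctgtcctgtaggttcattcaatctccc
The first base of CACGTG was at position -238 from the start in MXD4 and -193 in MNT. Neither of these genes passed the test in PBKi, and the called MXD1, MXD3, MXI1 and MGA had no such letters in this window, which says nothing of sites elsewhere.

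The genes most like MYC over the 12 samples, by Pearson correlation of log2 CPM among 9997 other genes of at least moderate expression, were PHLDA1 (r = 0.990), GPC3 (0.986) and HTR3A (0.984). Such values include the difference between the groups, and all 3 genes also fell in PBKi, by 1.46, 0.95 and 0.77 on the log2 scale. By deviations from the group means, which leave the treatment out, LPCAT3 (r = 0.930), MAPT (0.907) and PYGL (0.907) were most like MYC over the same 12 samples. For MXD1, the called member other than MYC with the largest change, DNAJC10 (r = 0.988), FHIP2A (0.983) and IL6ST (0.981) led by log2 CPM. By deviations from the group means DNAJC10 (r = 0.933) and FHIP2A (0.906) were again among the leading genes, with ENSG00000223380 (0.926) between them. Points from the same sample share library and depth, and these correlations are descriptions of likeness.

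Genes around the network were read in lists written by hand with earlier results of these data known. Their shares beside those of all genes are therefore descriptions and not tests. Of these genes 152 were tested in all, 52 lower and 19 higher in PBKi, against 21.5% lower and 20.1% higher of all genes tested. Beside the genes with the largest changes in each list, those named with counts of 5 or fewer were named after their values were seen. Of the 5 factors MLX, MLXIP, MLXIPL, USF1 and USF2, which form the parallel MLX arm or bind the same E-boxes, 1 was lower and 0 were higher. That gene was MLXIPL, the carbohydrate-responsive factor ChREBP, which fell from 7.07 ± 0.973 to 3.45 ± 0.430 CPM (log2 fold change -1.04). MLX itself was at 104 ± 10.3 and 106 ± 8.10 CPM and did not pass the test.

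The SIN3-HDAC corepressor that MXD proteins and MNT recruit had 8 of 14 subunits lower (57.1%, against 21.5% of all genes tested) and 1 higher (7.14%, against 20.1%). The median log2 fold change of these subunits was -0.19. RBBP7, a histone-binding subunit, fell by 0.48 on the log2 scale, from 283 ± 12.6 to 203 ± 14.1 CPM (SD, n = 6 each). SAP30, a SIN3 adaptor, fell by 0.44, the deacetylase HDAC1 by 0.34 and ING1, which reads histone methylation, by 0.30. The subunit that rose was BRMS1 (log2 fold change 0.19), and SAP18, the most abundant subunit that did not pass, had -0.11. In the MGA-E2F6 repressor complex, 3 of 10 genes were lower and 2 higher, with CBX3 (-0.40), the E2F partner TFDP1 (-0.31) and RYBP (-0.24) lower and RING1 (0.18) and L3MBTL2 (0.14) higher. WDR5, the most abundant of that complex that did not pass, had -0.11 with a standard error of 0.053.

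Coactivators and other partners that MYC binds had 5 of 17 genes lower (29.4%, not far from the 21.5% of all genes tested) and 1 higher (5.88%, against 20.1%), with a median of 0.06. MYCBP, named for its binding to MYC, fell by 0.48 on the log2 scale, and ACTL6A (-0.42), RUVBL1 (-0.39) and RUVBL2 (-0.24), which belong to chromatin complexes with the acetyltransferase KAT5, were also lower, as was KAT2A (-0.21). The elongation kinase CDK9 was higher (0.19), and MYCBP2, the most abundant that did not pass, had 0.03 with a standard error of 0.13. The count of coactivators called higher went from 0 to 5 over the alternative fits. Among 17 genes that set the turnover of MYC protein, 4 were lower (23.5%, near the 21.5% of all genes tested) and 2 higher (11.8%, against 20.1%). SKP2, a ubiquitin ligase subunit that targets MYC, fell from 123 ± 6.64 to 88.0 ± 6.74 CPM (log2 fold change -0.49). AURKA, which shields MYC proteins from degradation, fell by 0.34 and the deubiquitinase USP28 by 0.30, while USP36 (0.19) and TRIM32 (0.21) were higher. SET, the most abundant of these that did not pass, had -0.08 with a standard error of 0.05.

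Of 75 genes that MYC is known to raise, 74 were tested, and 27 were lower (36.5%, against 21.5% of all genes tested) and 6 higher (8.11%, against 20.1%), with a median log2 fold change of -0.12. The list was written with earlier results of these data known. In 15 of the 74 all PBKi samples lay below all DMSO samples, against 9.68% of all genes tested. The largest falls of well-expressed genes were in LDHA, which makes lactate, from 1417 ± 168 to 925.6 ± 175 CPM (log2 fold change -0.61, SD, n = 6 each), and ODC1, which starts polyamine synthesis, from 893 ± 73.1 to 640 ± 51.0 CPM (-0.48). RCC1 (-0.47), a guanine nucleotide exchange factor for RAN, FBL (-0.44), which methylates ribosomal RNA, HK2 (-0.43), the first enzyme of glycolysis, and EXOSC5 (-0.37), an exosome subunit, followed. The list also held genes that rose, led by the transferrin receptor TFRC, from 792 ± 104 to 1241 ± 41.0 CPM (log2 fold change 0.65). RRP12 (0.39), a ribosome assembly factor, AIMP2 (0.26), a scaffold of the tRNA synthetase complex, and BCAT1 (0.25, edgeR adjusted p = 0.0495), which acts on branched-chain amino acids, were higher as well. HSPD1, the most abundant that did not pass, had a log2 fold change of 0.01 with a standard error of 0.045. In replicates 4 to 6 alone, 11 of these genes were lower and 1 was higher, and over all genes the same fit called 1207 lower and 1273 higher, also fewer than in all 12 libraries.

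Of 12 genes that MYC is known to lower, 7 were higher (58.3%, against 20.1% of all genes tested). Another 3 were lower (25.0%, near the 21.5% of all genes tested), and the median log2 fold change was 0.82. This list too was written with earlier results of these data known. Ferritin heavy chain FTH1, an iron store, went from 132 ± 68.3 to 621 ± 99.1 CPM (log2 fold change 2.25), although its reads can be shared with many near-identical copies and DMSO replicate 5 (270 CPM) stood above the other DMSO samples. The extracellular chaperone CLU (1.55), the matrix protein THBS1 (1.45) and the stress-induced factor DDIT3 (1.02) rose without overlap. The 3 lower genes were NDRG1 (-0.92), NDRG2 (-0.37) and the CDK inhibitor CDKN1B (-0.32). GADD45G, the most abundant that did not pass, had 0.08 with a standard error of 0.10.

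**Figure D5:**
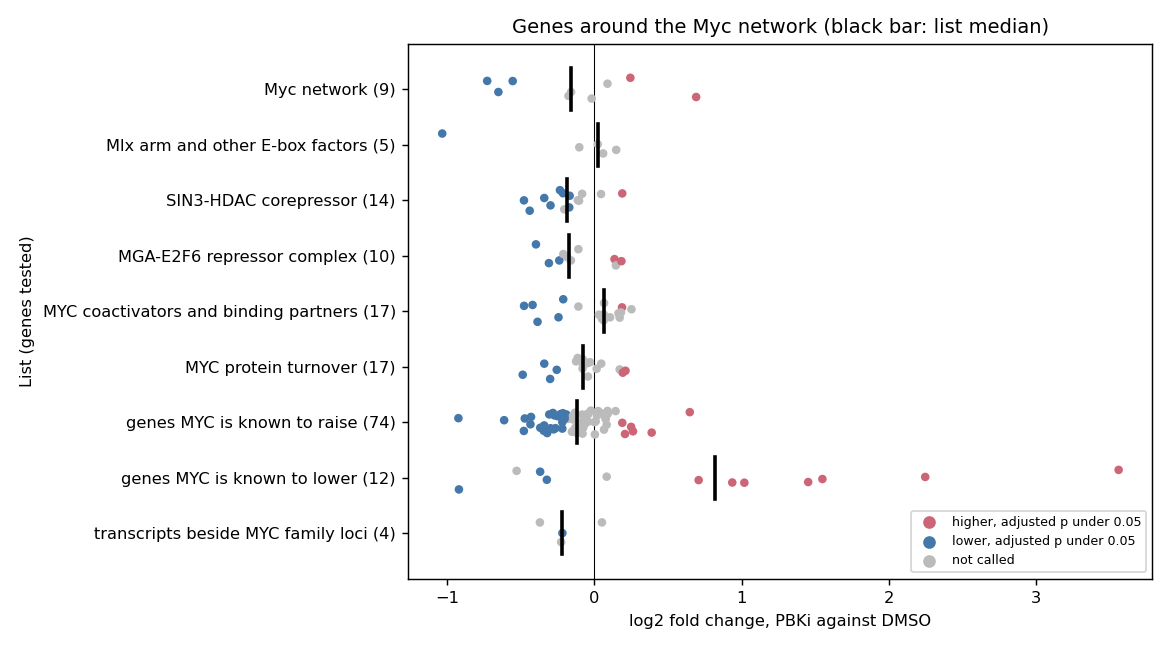
Log2 fold change of PBKi against DMSO for each gene tested in the network and in the lists around it, with red for higher and blue for lower at an adjusted p under 0.05, grey for genes not called and a black bar for each list median. The medians are -0.12 for genes MYC is known to raise and 0.82 for genes it is known to lower.

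Next to MYC on chromosome 8, the long non-coding transcript PVT1 went from 27.9 ± 2.74 to 24.1 ± 1.72 CPM (SD, n = 6 each). On the log2 scale PVT1 changed by -0.22 (SE 0.072, with edgeR's adjusted p = 0.0217), a smaller change than that of MYC, and the call was lost in 4 of the 12 fits that left out a library. It was the only 1 of 4 transcripts tested beside the MYC family loci to pass (25.0% lower, near the 21.5% of all genes tested). PCAT1, the most abundant that did not, was at 1.497 ± 0.493 and 1.27 ± 0.340 CPM. CASC11, which shares 194 exonic bases with MYC on the opposite strand, reached 0.639 ± 0.362 and 0.644 ± 0.134 CPM, far under the level of MYC.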

How the data were processed

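C4-2 cells treated with DMSO or PBKi (6 samples each) were profiled by single-end RNAseq with 40-base reads. Per the methods and the submitters' processing notes, the authors aligned reads with TopHat2 (2.0.4) to GRCh37 (Ensembl release 64) and made the deposited counts per gene with HTSeq (0.5.3p9), one file per lane, and tested them with DESeq (1.10.1). The strand setting of the counting is not given in the sources used here.

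The 47 lane files were summed per library by the sample labels (between lanes of a library, chi-square per degree of freedom was 0.990 to 1.02, as sampling noise gives). The 5 lines of each file that name no gene stayed out of totals and tests, and their shares stand with the depths. A gene entered the test if 6 or more samples had 10 or more counts, and the test used edgeR 4.0.16 (R 4.3.3), by TMM scaling and the quasi-likelihood test of PBKi against DMSO in all 12 libraries, with Benjamini-Hochberg adjustment and a threshold of 0.05. Correlations of log2 CPM used a prior count of 2. Exons and symbols came from GENCODE 44 lifted to GRCh37, matched by Ensembl identifier, with 47098 of 54127 identifiers given a symbol. Exact permutation tests were two-sided. On simulated counts for the same 14505 genes, 92% of 100 genes changed by 1 on the log2 scale and 69% of 100 changed by 0.5 were recovered, and 5.29% of calls were unchanged genes. Far fewer genes were changed there than the 41.7% called in PBKi, and the simulated libraries had no separation of replicate sets. These rates therefore need not hold for PBKi against DMSO.

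Alternatives were RLE scaling, DESeq2 1.42.0, limma-voom (limma 3.58.1), other filters, the replicate number as a block, the replicate set as a covariate, each replicate set alone, lanes 6 to 8 only, a fold change threshold of 0.5 on the log2 scale, exon length of the longest transcript, and each library left out. All members were named. From each other list the text names the 4 genes with the largest change among those called whose mean log2 CPM reached 3 (for genes MYC raises, the 6 largest falls and 4 largest rises), and the most abundant gene not called. A gene that this rule names is not reported here. The members and lists were chosen with earlier results of these data known. Samples with PBK silenced by siRNA were not analysed here.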

Additional observations from a re-analysis of the deposited data

Results flagged for a closer look

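Among 49 genes named in the text, each group of 6 samples was examined for a sample far from the other 5 by Dixon's ratio, and 7 of 98 groups held one (chance gives about 5%). Among the members, MXD1 in DMSO replicate 6 was at 10.2 CPM against 7.68 to 8.55 in the other DMSO samples, and MNT in PBKi replicate 2 was at 26.0 CPM against 28.9 to 30.5 in the other PBKi samples. LDHA in PBKi replicate 3 was at 587.5 CPM against 940.1 to 1089. FTH1 in DMSO replicate 5 was at 269.8 CPM against 93.4 to 117.6, and RRP12 in the same sample was at 95.1 CPM against 67.2 to 74.0. HDAC1 in DMSO replicate 4 was at 333 CPM against 344.8 to 347.4, and PVT1 in PBKi replicate 4 was at 20.8 CPM against 23.8 to 25.4.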

How the results depend on the processing

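MYC, MXD1, MXD3 and MXI1 kept direction and call in every alternative and with any library left out, with log2 fold changes then of -0.75 to -0.70, 0.62 to 0.76, -0.69 to -0.59 and -0.60 to -0.48. MGA lost its call in replicates 4 to 6 (0.21) and, in a fit chosen after seeing the data, without PBKi replicates 3 and 6 (0.12), and ranged from 0.19 to 0.31 with 1 library left out. MYCL, never called, turned to 0.04 in replicates 4 to 6 and 0.0632 without PBKi replicates 3 and 6, and ranged from -0.11 to 0.0409 with 1 library left out. That range was 0.0762 to 0.1127 for MAX, -0.22 to -0.13 for MXD4 and -0.21 to -0.11 for MNT. MXD4 passed with the replicate set as a covariate (-0.18, adjusted p = 0.0130 from edgeR).

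Members called higher were 1 in replicates 4 to 6, without PBKi replicates 3 and 6 and with the 0.5 threshold, and 1 to 2 with 1 library left out, when 3 to 5 were called lower. Over all genes, 1273 rose and 1207 fell in replicates 4 to 6, and 1278 and 626 with the 0.5 threshold. In the lists around the network 8 rose and 29 fell in replicates 4 to 6. The cause of these changes was not tested.

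By the longest transcript, levels in DMSO were 108 CPM per kb for MYC, 23.5 for MXI1, 16.7 for MAX, 13.1 for MXD3, 12.01 for MXD4, 6.64 for MNT, 5.87 for MGA, 4.198 for MYCL and 1.51 for MXD1.

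Replicate numbers were not taken to pair the samples, since no label ties them and 1 of 6 correlations of same-number deviations was under 0.1 (0.0887 to 0.299, mean 0.198, against -0.04 between numbers), with the own number best in 4 of 6 samples of each group. These values do not exclude that the numbers pair the samples. With the replicate number as a block, 3485 genes rose and 3803 fell, members called were 2 higher and 4 lower, MXD4 passed (-0.18, adjusted p = 0.00729 from edgeR) and MGA had 0.24 (adjusted p = 0.00291 from edgeR). MYCN, with 2 counts in all, is limited by depth.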
